A study of Mus musculus with 14 samples.

Results

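The 54 genes described here encode the proteins that hepatocytes secrete into plasma: 12 carriers, 14 complement proteins, 14 proteins of coagulation and fibrinolysis, and 14 acute phase proteins with hepcidin. They were chosen by name from the liver count table, which holds 54532 genes. A match on the symbol found 53 of the 54, and the remaining member, C5, is listed in the table as Hc and was matched through that synonym. All 54 members passed the filter on low counts in liver, and the member with the fewest reads had 431 over the 8 livers.

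Whole-liver RNA was sequenced from 4 Trf2F/F;Rosa-mTmG mice, in which Cre deletes Trf2 (gene symbol Terf2, which encodes a protein that shields chromosome ends), and from 4 control mice that carried Rosa-mTmG alone. Both groups received AAV8-Tbg-Cre through the tail vein and were sampled 6 to 7 weeks later. The controls therefore carried the same reporter and the same Cre virus. The Tbg promoter (thyroxine binding globulin) drives Cre in hepatocytes, so the other liver cells kept their Trf2 alleles while their RNA was part of each library. A second pair of groups were SV40-immortalized mouse embryonic fibroblasts (iMEFs) of genotype Trf2F/F;Rosa-CreER, with 3 libraries taken 7 days after 4-hydroxytamoxifen (4HT), when the cells were senescent, and 3 of vehicle-treated cells. The sources used here give neither the ages and sexes of the mice nor how many fibroblast lines were used.

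Plasma proteins are made as signal-peptide precursors, pass through the endoplasmic reticulum and Golgi, and leave the hepatocyte by constitutive secretion. In the acute phase response, interleukin-6 signals through STAT3 and interleukin-1 through NF-κB and C/EBP factors, and the hepatocyte raises one set of these transcripts (serum amyloid A, haptoglobin, fibrinogen and others) while lowering another (albumin, transthyretin). The RNA measured here gives the level of the transcripts and not of the secreted proteins. In whole-liver RNA, fewer cells of a type and less RNA per cell cannot be told apart.

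The liver libraries held 15364450 to 18015991 reads in genes. Levels below are CPM, the reads of a gene per 1000000 reads of a TMM-scaled library, or, where genes are compared with each other, CPM per kilobase of exon (RPKM). Terf2 had 4.91, 2.84, 2.87 and 4.67 CPM in Trf2-deleted livers 1 to 4, against 11.3, 13.8, 13.8 and 11.6 CPM in control livers 1 to 4, in the direction of the labels. Cdkn1a, the p53 target that encodes p21, had 148, 142, 109 and 55.6 CPM in Trf2-deleted livers and 27.6, 35.9, 10.8 and 9.32 CPM in control livers. Neither gene overlapped between the groups. The 12 hepatocyte marker genes summed to 28422 to 31341 CPM in Trf2-deleted livers and to 27338 to 32981 CPM in control livers, and each of them was abundant.

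Most transcripts of secreted plasma proteins differed little between Trf2-deleted and control livers. None of the 54 members passed an adjusted p of 0.05 in edgeR's quasi-likelihood test over all 14270 genes tested, in a comparison that called 0.343% of all genes (49 genes, with 44 or 0.308% higher and 5 or 0.035% lower in Trf2-deleted livers). DESeq2 and limma-voom also called 0 of the 54. At an unadjusted p under 0.05, edgeR found 8 members, 6 higher and 2 lower, where 7.54% of all genes tested did so (4.15% higher and 3.39% lower). Over the 54 members the median log2 fold change was 0.011, against -0.004 over all genes tested, with 29 members positive and 25 negative. The 95% interval lay within a 1.5-fold change in either direction for 46 of the 54 members, as it did for 58% of all genes tested, and within a 2-fold change for 50, against 80.3% of all genes tested. The intervals that reached beyond the 2-fold band were those of Saa1, Saa2, Saa3 and Lcn2, all of the acute phase class. The members are abundant, and their median standard error, 0.10 on the log2 scale, was smaller than that of all genes tested, 0.16.

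**Figure D1:**
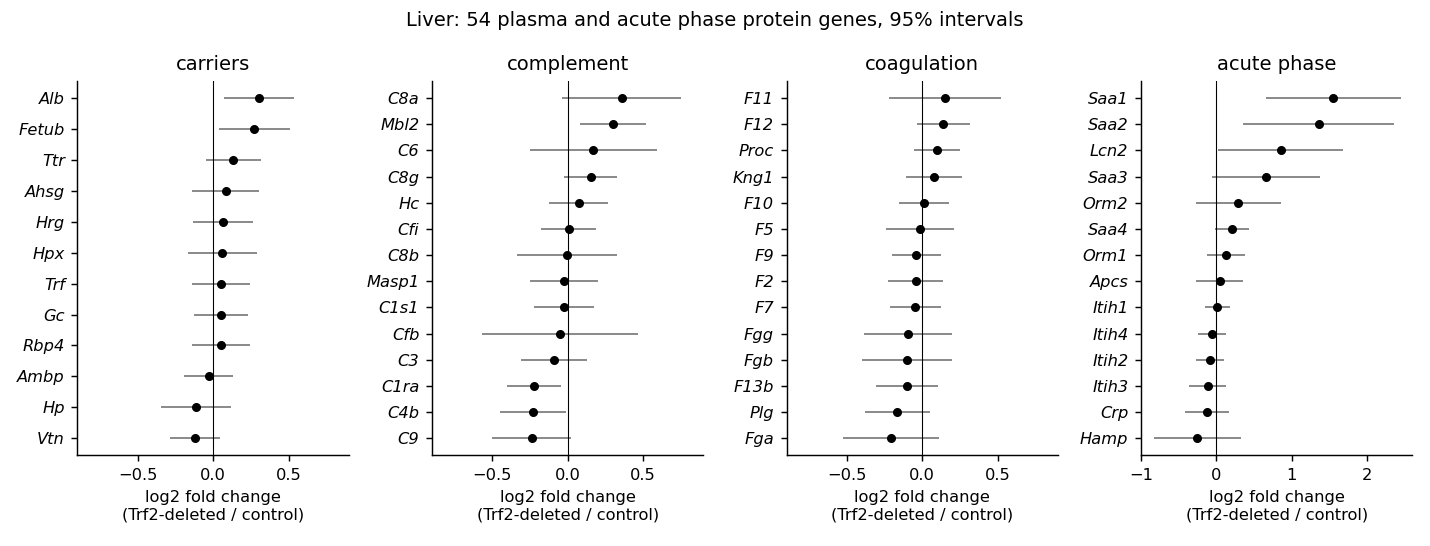
Log2 fold change of each of the 54 members between Trf2-deleted and control livers (x axis, points, with 95% intervals as bars), by class and sorted within it; the acute phase panel has a wider x axis. Most intervals include 0, and the values outside 0.36 in size are those of Saa1, Saa2, Saa3 and Lcn2.

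The members together took 16.2%, 16.7%, 16.1% and 14.5% of all reads in genes in Trf2-deleted livers 1 to 4, against 14.8%, 14.5%, 14.4% and 14.4% in control livers 1 to 4. Albumin accounted for the whole of that gap. The mean share of Alb was 7.72% in Trf2-deleted livers and 6.27% in control livers, against 15.87% and 14.54% for all members. Without Alb, the other 53 members took 7.74% to 8.46% in Trf2-deleted livers and 7.89% to 8.44% in control livers, and the groups overlapped. By class, the summed level in Trf2-deleted livers relative to control livers was 0.22 for carriers, -0.06 for complement, -0.09 for coagulation and -0.06 for the acute phase, as log2 ratios of geometric means with no test. The carriers took 10.4% to 12% of reads in Trf2-deleted livers and 9.49% to 10.3% in control livers, and without Alb their log2 ratio was 0.05. The acute phase class changes sign when each of its 14 members counts equally: the mean of their log2 levels was 0.27 higher in Trf2-deleted livers, whereas the sum is made up of its abundant members and hardly includes the low serum amyloid A genes.

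**Figure D2:**
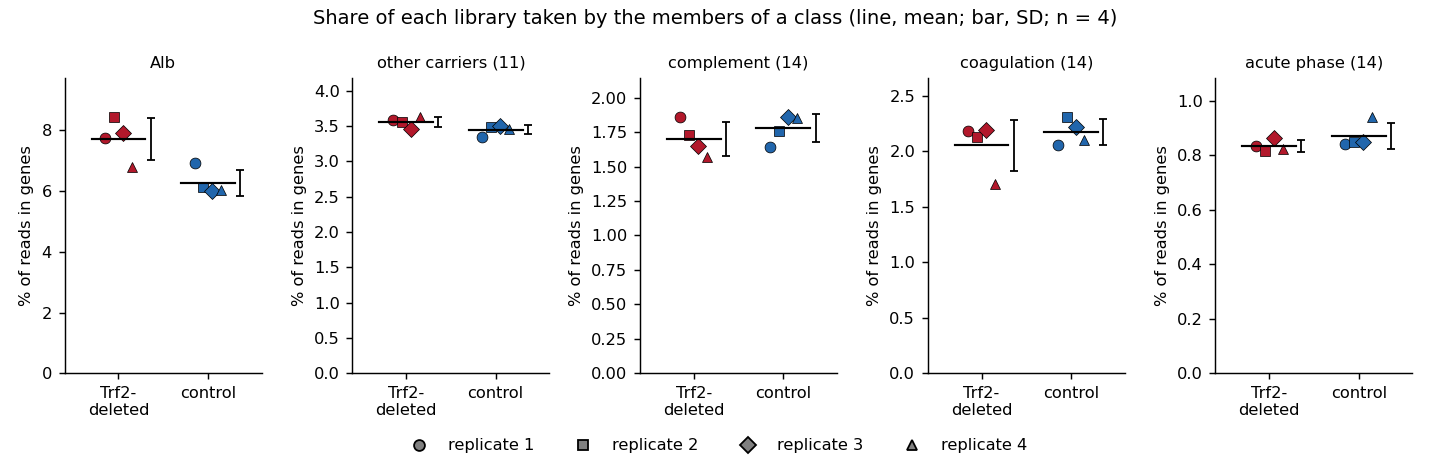
Percent of reads in genes taken by Alb and by each class (y axes, each from 0) in every liver (points, shape by replicate), with the mean (line) and SD (bar) of the 4 Trf2-deleted livers on the left and the 4 control livers on the right. Alb was at 6.78% to 8.44% in Trf2-deleted livers and 6.01% to 6.92% in control livers, and the groups overlapped for the other 11 carriers and for each of the other classes.

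Among the carriers, 9 of the 12 had a positive and 3 a negative log2 fold change, with a median of 0.06 against -0.004 over all genes tested. Alb (chr5:90460897-90476602 on mm10) encodes the main protein of plasma and was the highest member per length, at a mean of 29936 RPKM. It had 77493, 85702, 80714 and 65969 CPM in Trf2-deleted livers and 69521, 61199, 61120 and 59171 CPM in control livers. Trf2-deleted liver 4 lay below control liver 1, and the other 3 Trf2-deleted livers lay above every control. The fold change was 1.23 (95% interval 1.05 to 1.45, edgeR adjusted p = 0.518), and the adjusted p ranged from 0.22 to 0.843 over the 14 alternative fits.

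Ttr, which encodes the thyroxine and retinol carrier transthyretin, was the next highest member per length at 4361 RPKM. It had 5220, 5744, 5511 and 5178 CPM in Trf2-deleted livers and 5068, 5253, 4913 and 4490 CPM in control livers, with overlapping groups and a log2 fold change of 0.13 ± 0.08 (SE). Fetub, the fetuin relative that inhibits the ovastacin protease, had 502, 448, 555 and 466 CPM in Trf2-deleted livers and 336, 430.3, 454 and 411 CPM in control livers. Only Trf2-deleted liver 2 fell within the control range, and the log2 fold change was 0.27 ± 0.11 (SE, edgeR adjusted p = 0.578). Alb, Ttr, Trf (transferrin, the iron carrier), Rbp4 (the retinol carrier) and Ahsg (fetuin-A) encode proteins that fall in the human acute phase response. Their log2 fold changes were 0.30, 0.13, 0.05, 0.05 and 0.08, none of them negative and none past the test.

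Hp encodes haptoglobin, which binds free hemoglobin and rises in the acute phase. It had 1906, 1931, 1675 and 1800 CPM in Trf2-deleted livers and 1790, 1714, 2098 and 2318 CPM in control livers. The groups overlapped, control livers 3 and 4 were the highest, and the log2 fold change was -0.12 ± 0.11 (SE). Hpx, which binds free heme, was at 0.06. The erythroid markers, which include the hemoglobin genes, summed to 132, 272, 276 and 202 CPM in Trf2-deleted livers and to 157, 138, 172 and 105 CPM in control livers, and their part in the carrier levels was not tested. Vtn (vitronectin, an adhesion protein that also restrains complement) was the one carrier whose groups did not overlap, with 2814, 2660, 2580 and 2766 CPM in Trf2-deleted livers and 2942, 2816, 3028 and 2964 CPM in control livers. The highest Trf2-deleted liver stood just under the lowest control, and the log2 fold change was -0.12 ± 0.08 (SE, edgeR adjusted p = 0.767). The remaining carriers, Gc (vitamin D binding protein), Ambp (the alpha-1-microglobulin and bikunin precursor) and Hrg (histidine-rich glycoprotein), were at 0.05, -0.03 and 0.07. Of the exon bases of Trf, 63.5% also belong to a readthrough gene on the same strand, which had 0 reads in every liver. How reads in the shared bases were counted is not given, so the level of Trf may be understated.

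Across all 54 members, groups did not overlap for 4: Mbl2 and Proc were higher and Vtn and C1ra lower in every Trf2-deleted liver than in every control liver. Over all genes tested this was so for 4.51% (2.55% higher and 1.96% lower). None of these 4 passed the adjusted test.

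Complement genes were split, with 6 positive and 8 negative log2 fold changes and a median of -0.01. C3, the central component on which the activation pathways converge, was the most abundant at 2218 RPKM. It had 12079, 11610, 10977 and 9524 CPM in Trf2-deleted livers and 10712, 11666, 12926 and 11761 CPM in control livers, with overlapping groups and a log2 fold change of -0.09 ± 0.10 (SE). Trf2-deleted liver 4 was the lowest of the 8. Among the recognition and initiation genes, Mbl2 encodes mannose-binding lectin, which starts the lectin pathway on microbial sugars. It had 808, 817, 738 and 962 CPM in Trf2-deleted livers and 703, 596, 674 and 727 CPM in control livers. Every Trf2-deleted liver lay above every control, by a fold change of 1.23 (95% interval 1.06 to 1.43, edgeR adjusted p = 0.484). Masp1, a protease that lectin complexes carry, was at a log2 fold change of -0.02.

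The proteases of the classical pathway are C1r and C1s, encoded by the neighbors C1ra and C1s1 on chromosome 6. C1ra, described because its groups did not overlap, had 282, 266, 253 and 236 CPM in Trf2-deleted livers and 303, 291, 302 and 317 CPM in control livers. All 4 Trf2-deleted livers were under all 4 controls (log2 fold change -0.23 ± 0.08 SE, edgeR adjusted p = 0.539), while C1s1 was at -0.02. Of the 100-base stretches of C1ra exons, 35.9% also occur in other genes, mainly its copy C1rb, so its reads may be divided between copies. C4b encodes the component that C1s cleaves. It had 1667, 1585, 1582 and 1372 CPM in Trf2-deleted livers and 1587, 1907, 1747 and 2033 CPM in control livers. Control liver 1 fell among the Trf2-deleted livers and the other 3 controls lay above them (log2 fold change -0.23 ± 0.10 SE, edgeR adjusted p = 0.636); 15.2% of its 100-base stretches are shared with C4a.

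The terminal genes encode the proteins of the membrane attack complex. C8a, for the alpha chain of C8, had the highest log2 fold change of the class, 0.36 ± 0.18 (SE, edgeR adjusted p = 0.69). It had 519, 353, 265 and 314 CPM in Trf2-deleted livers and 244, 287, 266 and 336 CPM in control livers. Trf2-deleted liver 1 stood well above the rest, liver 2 lay just above the highest control, and livers 3 and 4 were within the control range. C8b, its neighbor on chromosome 4 and the gene of the beta chain, had 236, 166, 152 and 174 CPM in Trf2-deleted livers and 145, 200.2, 171 and 215 CPM in control livers, and was highest in the same liver. Within each liver, C8a had 2.19, 2.13, 1.74 and 1.8 reads per C8b read in Trf2-deleted livers and 1.68, 1.43, 1.55 and 1.56 in control livers. These ratios did not overlap, but they were computed after the values had been seen and carry no test. C9, whose product lines the pore, had 238, 164, 168 and 191 CPM in Trf2-deleted livers and 233, 208, 210.0 and 246 CPM in control livers. Trf2-deleted liver 1 was again apart from the other 3, which lay under every control (log2 fold change -0.24 ± 0.12 SE). The other complement members, Hc, C6, C8g, Cfb and Cfi, ranged from -0.05 to 0.17. Cfb, a protease of the alternative pathway, had 2.63 RPKM in liver. Of its exon bases, 79.5% overlap a readthrough gene on the same strand that had 0 reads. The handling of reads in these shared bases is not given, so the level of Cfb may be understated.

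Trf2-deleted liver 1 had the highest level of its group in 10 of the 14 complement genes and in 7 of the 14 acute phase genes, and over all genes tested it was highest in 27.1%. Trf2-deleted liver 3 had the lowest level in 7 of the 14 acute phase genes, against 25.3% of all genes tested. Trf2-deleted liver 4 had the lowest level in 10 of the 14 coagulation genes, against 27.1% of all genes tested.

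Coagulation and fibrinolysis genes gave the narrowest class, with log2 fold changes from -0.21 to 0.15, a median of -0.04, and 95% intervals that all lay within a 1.5-fold change. The vitamin K-dependent factors F2 (prothrombin), F7, F9, F10 and Proc (protein C, which shuts coagulation down) were at -0.04, -0.04, -0.04, 0.01 and 0.10. Proc had 555, 552, 554 and 571 CPM in Trf2-deleted livers and 520.0, 503, 532 and 529.8 CPM in control livers. Its groups did not overlap, yet the difference amounted to a fold change of 1.07 (95% interval 0.961 to 1.19, edgeR adjusted p = 0.797). F11 and F12, the factors of the contact pathway, had the highest log2 fold changes of the class. F11 had 73.4, 67.0, 49.3 and 80.9 CPM in Trf2-deleted livers and 43.8, 60.5, 67.3 and 72.4 CPM in control livers, with both groups spread over the same range. F12 had 653, 696, 705 and 606 CPM in Trf2-deleted livers and 633, 579, 595 and 609 CPM in control livers, and Trf2-deleted liver 4 lay among the controls. Their log2 fold changes were 0.15 ± 0.17 and 0.14 ± 0.08 (SE).

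Fibrinogen transcripts were low in 1 Trf2-deleted liver. Fga, Fgb and Fgg encode the alpha, beta and gamma chains of the clot protein, lie side by side on chromosome 3 between 83007724 and 83049863 of mm10, and had 1363, 1008 and 1463 RPKM. Fga had 4404, 4117, 4105 and 2614 CPM in Trf2-deleted livers and 4107, 4905, 4332 and 4245 CPM in control livers. Fgb had 4015, 4089, 4049 and 2664 CPM in Trf2-deleted livers and 3696, 4384, 4236 and 3594 CPM in control livers. Fgg had 3164, 3178, 3277 and 2231 CPM in Trf2-deleted livers and 2972, 3577, 3418 and 2682 CPM in control livers. In all 3 genes Trf2-deleted liver 4 was the lowest of the 8 livers and the other 3 Trf2-deleted livers lay within or beside the control range. That liver held 62.1%, 65.8% and 69.6% of the mean of the other 3 for Fga, Fgb and Fgg.

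The log2 fold changes were -0.21 ± 0.14 for Fga, -0.10 ± 0.14 for Fgb and -0.09 ± 0.13 for Fgg (SE). Without Trf2-deleted liver 4, Fgb and Fgg moved to 0.027 and 0.020. Plg, for plasminogen, the precursor of the enzyme that dissolves fibrin, had 2206, 2200, 2350 and 1823 CPM in Trf2-deleted livers and 2212, 2400, 2652 and 2355 CPM in control livers. It was also lowest in that liver, at 80.9% of the mean of the other 3, and its log2 fold change was -0.17 ± 0.10 (SE, edgeR adjusted p = 0.741). F5 was at 77.3% of the other 3 there, F2 at 84.1% and F13b at 83.6%, whereas F7, F10 and Proc were at 104%, 102% and 103%. Alb and C3 were at 81.1% and 82.4% in the same liver.

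**Figure D3:**
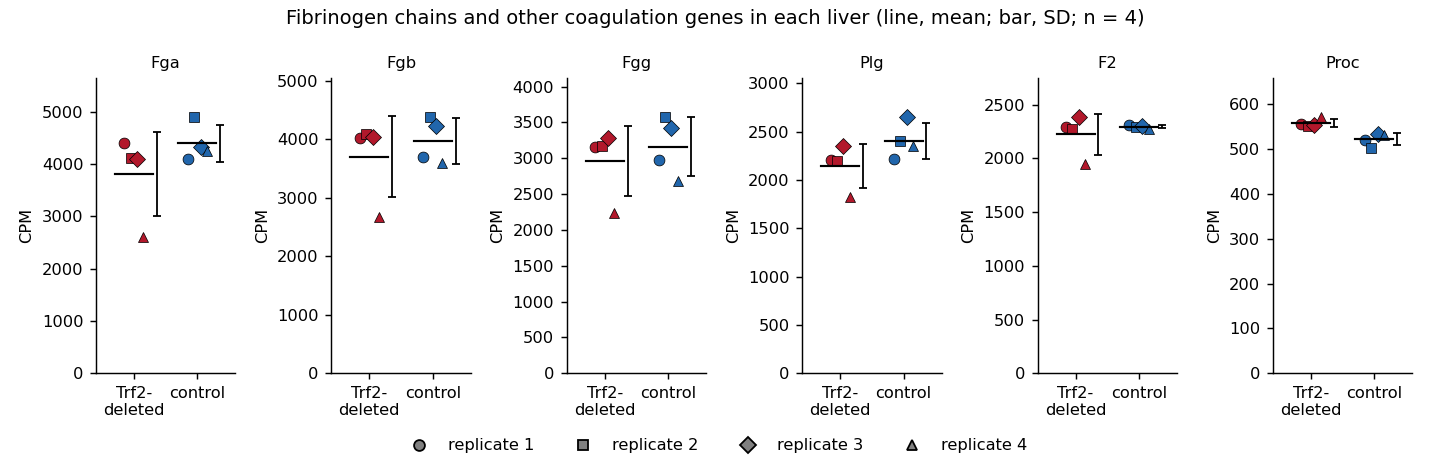
CPM (y axes, each from 0) of the fibrinogen chains Fga, Fgb and Fgg, and of Plg, F2 and Proc, in each liver (points, shape by replicate), with the mean (line) and SD (bar) of 4 Trf2-deleted livers on the left and 4 control livers on the right. Trf2-deleted liver 4 (triangle) lies lowest for Fga, Fgb, Fgg, Plg and F2, at 62.1% of the other 3 for Fga, and is not low for Proc.

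Fibrinogen genes are induced by interleukin-6, and the bases before their starts are shown because the set was low together in 1 liver. The sequences are from RefSeq (GRCm38.p6), cover up to 250 bases before the start, and leave off bases inside the annotated gene. Capitals mark the letters CTGGGAA (the IL-6 response motif), TTCNNNGAA (STAT) and TTGCNNAA (C/EBP), searched on both strands. No 2 of these motif matches overlap. The motifs were chosen after the sequences had been seen.
Fga (chr3:83025903-83026075, strand +): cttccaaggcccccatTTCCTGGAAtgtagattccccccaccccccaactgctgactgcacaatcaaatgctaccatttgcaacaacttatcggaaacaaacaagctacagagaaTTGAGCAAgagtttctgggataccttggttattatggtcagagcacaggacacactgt
Fgb (chr3:83049864-83050113, strand -): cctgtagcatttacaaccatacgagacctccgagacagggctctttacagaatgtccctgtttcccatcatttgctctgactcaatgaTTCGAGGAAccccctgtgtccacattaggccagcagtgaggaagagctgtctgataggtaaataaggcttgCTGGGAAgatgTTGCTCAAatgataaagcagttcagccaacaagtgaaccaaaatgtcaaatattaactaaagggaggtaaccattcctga
Fgg (chr3:83007474-83007723, strand +): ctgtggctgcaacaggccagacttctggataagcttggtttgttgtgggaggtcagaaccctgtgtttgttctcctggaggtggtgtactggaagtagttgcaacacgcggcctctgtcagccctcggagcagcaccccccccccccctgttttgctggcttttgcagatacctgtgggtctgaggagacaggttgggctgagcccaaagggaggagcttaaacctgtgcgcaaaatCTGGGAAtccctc

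CTGGGAA occurs in Fgb and Fgg and not in Fga, TTCNNNGAA in Fga and Fgb, and TTGCNNAA in Fga and Fgb. Of 32851 mouse promoters, 9.1% hold CTGGGAA, 7.02% hold TTCNNNGAA and 9.56% hold TTGCNNAA within 250 bases before the start. A match says only that the letters are present.

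The acute phase class held the widest spread, between groups and within them. Its median log2 fold change was 0.08 against -0.004 over all genes tested, with 9 positive and 5 negative values. A coefficient of variation above 30% was found for 6 of its 14 members among the Trf2-deleted livers and 3 among the control livers. Of all 14270 genes tested, 2826 and 2816 were above it. The median coefficient of the class, 15.74% in Trf2-deleted and 16.49% in control livers, was near that of all genes tested, 15.36% and 14.05%. Saa1 and Saa2 encode the serum amyloid A proteins that circulate on high-density lipoprotein and are the most inducible acute phase proteins of the mouse liver. Saa1 had 68.2, 47.1, 11.7 and 29.7 CPM in Trf2-deleted livers and 12.7, 11.3, 10.2 and 19.3 CPM in control livers. Trf2-deleted livers 1, 2 and 4 lay above every control, liver 1 at 3.54 times the highest of them, and Trf2-deleted liver 3 lay among the controls. The fold change was 2.93 (95% interval 1.57 to 5.44), with an unadjusted p of 0.00269 and an edgeR adjusted p of 0.276.

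Saa2 had 30.3, 21.0, 5.54 and 10.7 CPM in Trf2-deleted livers and 6.8, 5.28, 3.47 and 10.8 CPM in control livers. The order of the Trf2-deleted livers was that of Saa1, livers 1 and 2 stood above the controls, and livers 3 and 4 were within the control range. The fold change was 2.56 (95% interval 1.28 to 5.13, edgeR adjusted p = 0.493). The call depended on the fit. With no filter on low counts, Saa1 had an adjusted p of 0.00061 and Saa2 of 0.0187, and without Trf2-deleted liver 3 Saa1 had 0.0175 at a log2 fold change of 1.85. Over the 14 alternative fits the log2 fold change of Saa1 stayed between 1.14 and 1.85 and that of Saa2 between 0.91 and 1.70.

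Even at their highest, these transcripts were scarce for plasma protein genes. Saa1 and Saa2 together took 0.00985%, 0.0067%, 0.00169% and 0.00415% of reads in Trf2-deleted livers and 0.00194%, 0.00166%, 0.00134% and 0.00306% in control livers. Saa1 and Saa2 averaged 10.6 and 4.66 RPKM over the 8 livers and ranked 49 and 51 among the 54 members. The reads of Saa1 per read of Saa2 were 2.25, 2.24, 2.11 and 2.79 in Trf2-deleted livers and 1.87, 2.14, 2.95 and 1.79 in control livers. Of their 100-base exon stretches, 9% of Saa1 and 8.6% of Saa2 occur in the other gene, and reads there may be divided between them. Saa1 and Saa2 lie head to head in a cluster with Saa3 and Saa4 on chromosome 7 (46711998 to 46754313). Their promoters are shown because the pair had the same order among the Trf2-deleted livers, with the C/EBP letters TTGCNNAA in capitals.
Saa1 (chr7:46742981-46743230, strand -): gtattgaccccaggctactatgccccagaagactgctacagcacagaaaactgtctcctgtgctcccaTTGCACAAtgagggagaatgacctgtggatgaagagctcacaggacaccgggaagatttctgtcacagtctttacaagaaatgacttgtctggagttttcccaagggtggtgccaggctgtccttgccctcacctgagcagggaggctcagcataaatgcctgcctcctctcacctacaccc
Saa2 (chr7:46751583-46751789, strand +): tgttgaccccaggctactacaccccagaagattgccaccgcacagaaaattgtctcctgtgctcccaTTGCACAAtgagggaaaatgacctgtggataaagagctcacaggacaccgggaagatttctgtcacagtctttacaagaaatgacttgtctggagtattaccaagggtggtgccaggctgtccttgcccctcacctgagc

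Over the 250 bases before their RefSeq starts the Saa1 and Saa2 promoters were 94.8% identical, with 238 of 251 aligned columns the same. For Saa2 the aligned bases include some inside the annotated gene, which were left off the 207 bases printed above. Each promoter held TTGCACAA on the printed strand, and neither held CTGGGAA or TTCNNNGAA.

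The other members known to be induced in inflammation followed in part. Saa3, which macrophages and fat cells also make, had 5.49, 3.5, 1.85 and 4.99 CPM in Trf2-deleted livers and 3.12, 2.87, 2.13 and 1.94 CPM in control livers. Trf2-deleted livers 1, 2 and 4 were again above every control and liver 3 was the lowest of all 8 (log2 fold change 0.65 ± 0.33 SE, edgeR adjusted p = 0.69). Lcn2, for the siderophore-binding lipocalin-2 and named after its values were seen, had 22.7, 13.9, 5.16 and 9.09 CPM in Trf2-deleted livers and 4.4, 7.45, 6.51 and 9.82 CPM in control livers. Livers 1 and 2 of the Trf2-deleted group stood above the controls (log2 fold change 0.85 ± 0.38 SE, edgeR adjusted p = 0.648). The sums of 13 macrophage markers were 656, 665, 553 and 662 CPM in Trf2-deleted livers and 565, 299.95, 465 and 667 CPM in control livers. The sums of 11 neutrophil markers, 8 of which averaged under 1 CPM, were 10.2, 5.22, 8.28 and 9.28 CPM in Trf2-deleted livers and 5.35, 5.4, 4.74 and 6.94 CPM in control livers, and Ly6g, the defining neutrophil gene, was at 0.0637 CPM in Trf2-deleted liver 3 and at 0 in the other 7 livers. The macrophage sums overlapped between the groups, although 11 of the 12 macrophage markers tested had positive log2 fold changes and 1 a negative one. All 3 neutrophil markers tested were positive, and 0 markers of either list passed the edgeR test. Csf3r, a neutrophil marker, had 4.39, 3.37, 4.84 and 4.23 CPM in Trf2-deleted livers and 1.9, 2.35, 1.82 and 3.05 CPM in control livers. Its groups did not overlap (log2 fold change 0.88 ± 0.24 SE, edgeR adjusted p = 0.314). Ltf, on the same list but under the filter on low counts, did not overlap in the other direction. It had 0.116, 0, 0 and 0 CPM in Trf2-deleted livers and 0.167, 0.528, 0.122 and 0.277 CPM in control livers. These levels rest on 2 reads in Trf2-deleted livers and 19 in control livers. The part of either cell type in the serum amyloid A levels was not tested.

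**Figure D4:**
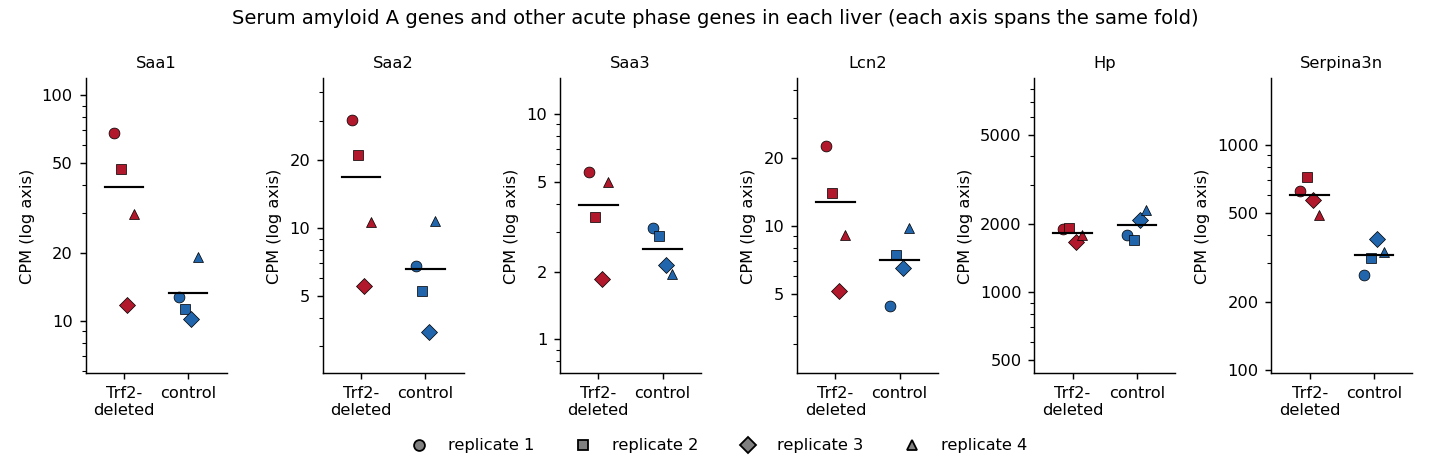
CPM (log y axes, each spanning the same fold) of Saa1, Saa2, Saa3, Lcn2, Hp and Serpina3n in each liver (points, shape by replicate), with the arithmetic mean of each group as a line, Trf2-deleted livers on the left and control livers on the right. Trf2-deleted liver 1 (circle) is the highest and liver 3 (diamond) the lowest of its group for Saa1, Saa2, Saa3 and Lcn2, Hp is even across the livers, and the groups separate only for Serpina3n.

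Abundant acute phase members shared that pattern only in part. For Orm1 and Crp, Trf2-deleted liver 3 was again the lowest of its group, but liver 2 and not liver 1 was the highest. Orm1, for the serum carrier alpha-1-acid glycoprotein, had 662, 704, 536 and 659 CPM in Trf2-deleted livers and 488, 592, 577 and 683 CPM in control livers, with overlapping groups and a log2 fold change of 0.13 ± 0.12 (SE). Crp, C-reactive protein, which is a minor acute phase protein in mice, had 455, 495, 348 and 464 CPM in Trf2-deleted livers and 497, 448, 577 and 400.3 CPM in control livers (log2 fold change -0.13 ± 0.13 SE). The inter-alpha-trypsin inhibitor heavy chain genes Itih1, Itih2, Itih3 and Itih4 were at 0.01, -0.09, -0.12 and -0.06. Apcs, the mouse serum amyloid P gene, was at 0.04, Saa4, which is expressed constitutively, at 0.21, and Orm2 at 0.29.

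Hamp encodes hepcidin, the hormone that blocks iron export through ferroportin and is raised by iron and by interleukin-6. It had 489, 790.4, 1412 and 903 CPM in Trf2-deleted livers and 1137, 1052, 745 and 1353 CPM in control livers. The groups covered much the same range, and Trf2-deleted liver 1, highest in Saa1, was the lowest of the 8 in Hamp while liver 3, lowest of its group in Saa1, was the highest of the 8. The log2 fold change was -0.25 ± 0.27 (SE, 95% interval -0.83 to 0.32), the lowest of all members and not past the test (edgeR adjusted p = 0.879).

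Genes around the members were read from lists of the pathway that exclude the members. The counts of each list stand against 0.343% of all genes tested that passed and 7.54% with an unadjusted p under 0.05 in edgeR. Of 26 listed genes of the cytokine signal to the acute phase, 23 were tested. Il6, Tnf and Osm fell under the filter on low counts. They had 5, 14 and 7 reads in all over Trf2-deleted livers and 11, 10 and 2 over control livers. Of the 23, 0 passed the edgeR test and 3 had an unadjusted p under 0.05. The smallest p-values were those of Tnfrsf1a, a receptor of TNF, and Nfkbia, the inhibitor of NF-κB. The third gene was Il1b (log2 fold change 0.79 ± 0.33 SE, edgeR adjusted p = 0.61). Tnfrsf1a had 101, 117, 118 and 106 CPM in Trf2-deleted livers and 90.5, 89.3, 91.1 and 93.8 CPM in control livers, without overlap (edgeR adjusted p = 0.377). Nfkbia had 37.8, 41.2, 33.3 and 35.4 CPM in Trf2-deleted livers and 68.5, 39.2, 48.8 and 42.4 CPM in control livers (edgeR adjusted p = 0.548). Tnfrsf1a separated the groups, and for Nfkbia Trf2-deleted liver 2 lay above control liver 2.

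Of 16 tested genes on the list of other acute phase genes, 1 rose. Serpina3n, a secreted serine protease inhibitor that is induced in inflammation in mice, had 623, 718, 570.4 and 489 CPM in Trf2-deleted livers and 266, 316, 382 and 335 CPM in control livers. Every Trf2-deleted liver was above every control (fold change 1.85, edgeR adjusted p = 0.0115). It passed in 13 of 14 alternative fits, with log2 fold changes from 0.79 to 0.97, and had an adjusted p of 0.0516 without control liver 2. Its order among the Trf2-deleted livers was not that of Saa1, since liver 2 was highest and liver 4 lowest.

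None of the 18 hepatocyte transcription factors passed, with 1 at an unadjusted p under 0.05 and a median of -0.03 on the log2 scale. Nr1h4, the bile acid receptor FXR, had 126, 127, 111 and 112 CPM in Trf2-deleted livers and 129, 132, 136 and 145 CPM in control livers, lower in each (edgeR adjusted p = 0.651). Nr0b2, the corepressor SHP that FXR induces, was at a log2 fold change of -0.48 ± 0.27 (SE). None of the 22 genes of hepcidin regulation passed, with 3 at an unadjusted p under 0.05, and the smallest p-values were those of Acvr1, a BMP receptor, at -0.36 ± 0.14, and Neo1, neogenin, at -0.23 ± 0.10 (SE).

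None of the 20 other coagulation genes passed or had an unadjusted p under 0.05. Serpinf2, the plasmin inhibitor, had the smallest p-value, at a log2 fold change of -0.20 ± 0.10 (SE). Of 19 other complement genes, 16 had positive and 3 had negative log2 fold changes, with a median of 0.11. None of them passed, with 1 at an unadjusted p under 0.05. That gene was Serping1, for the inhibitor of C1r and C1s, with 697, 659, 648 and 669 CPM in Trf2-deleted livers and 779.9, 777, 821 and 896 CPM in control livers. All Trf2-deleted livers lay below all controls (log2 fold change -0.29 ± 0.08 SE, edgeR adjusted p = 0.307). Colec11, a lectin pathway collectin, followed at 0.19 ± 0.09. Among the positive values, C1qa, which is also on the macrophage marker list, was at 0.30, and C1qb and C1qc were at 0.30 and 0.37. The part of cells other than hepatocytes in the values of this list was not tested.

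The secretory pathway list covers the translocon, signal peptide removal, oligosaccharide transfer and vesicle coats through which the members leave the cell. None of its 43 genes passed, where 0.343% of all genes tested did, and 2 had an unadjusted p under 0.05, against 7.54%. The 95% interval lay within a 1.5-fold change for 41 of the 43 genes, against 58% of all genes tested. Their median was -0.06 on the log2 scale, with 13 positive and 30 negative values. Sec31a and Sec23b, coat proteins of the vesicles that leave the endoplasmic reticulum, had the smallest p-values, at -0.23 ± 0.09 and -0.38 ± 0.17 (SE, edgeR adjusted p = 0.565 and 0.646). In these libraries DESeq2 called 133 of all genes and limma-voom 46, against 49 for edgeR.

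In iMEFs most members were not expressed at a level the libraries could measure. No read was counted in any of the 6 libraries for 25 of the 54 members, Alb, Ttr, the fibrinogen genes, Saa1 and Hamp among them, which allows a level of up to 0.0274 CPM (3 reads over the 6 libraries, counting error only). A further 15 had 1 to 10 reads in all, and 9 members were abundant enough to test. Of those 9, 4 passed an adjusted p of 0.05, in a comparison that called 39.8% of the 13561 genes tested (18.6% higher and 21.2% lower), so the members' count was near the background. Masp1, the lectin pathway protease, rose, with 250.2, 241 and 338 CPM in senescent iMEFs and 182, 177 and 187 CPM in vehicle-treated iMEFs (log2 fold change 0.60 ± 0.12 SE, edgeR adjusted p = 0.00131). Senescent library 3 was the highest.

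C1s1, C1ra and C4b, consecutive steps of the classical pathway, fell. C1s1 had 14.4, 15.2 and 17.7 CPM in senescent iMEFs and 40.4, 34.6 and 34.8 CPM in vehicle-treated iMEFs (log2 fold change -1.21 ± 0.11 SE, edgeR adjusted p = 4.73e-06). C1ra had 8.1, 9.2 and 10.3 CPM in senescent iMEFs and 29.9, 26.4 and 25.5 CPM in vehicle-treated iMEFs (-1.57 ± 0.12 SE). C4b had 1.07, 0.975 and 0.746 CPM in senescent iMEFs and 4.75, 1.92 and 2.1 CPM in vehicle-treated iMEFs (-1.63 ± 0.39 SE, edgeR adjusted p = 0.00514), and rested on 49 reads in senescent and 164 in vehicle-treated libraries. The groups did not overlap for any of these 3 genes. The other 5 that were tested, Rbp4, Fetub, C3, C8g and Itih2, did not pass. Kng1, the kininogen gene, was under the filter on low counts, with 1, 4 and 5 reads in senescent iMEFs and 16, 26 and 10 reads in vehicle-treated iMEFs. The groups did not overlap, and Kng1 passed where it was tested with DESeq2 (log2 fold change -2.23, adjusted p = 0.019) and with no filter in edgeR (-2.22, adjusted p = 0.00144).

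Whether the effect differed between liver and iMEFs was tested for the 9 members as an interaction over both tissues, in which 17.1% of 11693 genes passed (9.69% with a higher and 7.41% with a lower effect in liver). It passed for 5 of the 9. The log2 effect in Trf2-deleted livers minus that in senescent iMEFs was 1.34 ± 0.14 for C1ra, 1.19 ± 0.14 for C1s1, 1.39 ± 0.36 for C4b, 1.05 ± 0.31 for Fetub and -0.63 ± 0.16 for Masp1 (SE, edgeR adjusted p = 4.01e-06, 2.44e-05, 0.0127, 0.0257 and 0.0147). C1ra and C4b had negative values in both tissues, smaller in size in liver, while C1s1 and Masp1 moved in iMEFs and were at -0.02 in liver. In limma-voom C1ra, C1s1 and Masp1 passed, and C4b and Fetub had adjusted p-values of 0.0777 and 0.161. The tissues differ in cell type, immortalization, Cre driver and time after deletion, and these cannot be told apart.

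**Figure D5:**
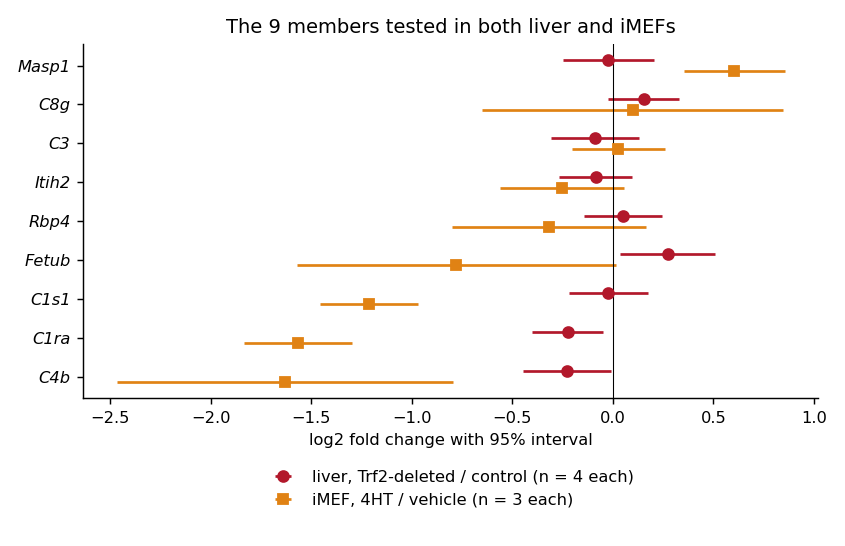
Log2 fold change with 95% interval (x axis) of the 9 members tested in both tissues, for Trf2-deleted over control livers (circles) and 4HT-treated over vehicle-treated iMEFs (squares). C1ra, C1s1 and C4b lie at -1.57, -1.21 and -1.63 in iMEFs and within 0.23 of 0 in liver.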

How the data were processed

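RNA from 8 livers and 6 iMEF libraries was sequenced by Novogene. The authors deposited raw counts of reads in each gene, in 1 table per tissue. The submitters' notes name STAR, featureCounts and the build mm10. Version, annotation release or strand setting is not given in the sources used here, so reads of overlapping genes could not be assigned further. Normalized tables that the authors also deposited were not used. Libraries held 15364450 to 20177401 reads in genes, and intervals on reads cover counting error only.

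Counts were filtered with filterByExpr, scaled by TMM and tested over all genes with edgeR 4.0.16 (quasi-likelihood, Benjamini-Hochberg adjustment, threshold 0.05) in R 4.3.3, for liver, for iMEFs and for the tissue interaction. Alternatives were DESeq2 1.42.0, limma-voom 3.58.1, RLE factors, TMM factors without the members, library size only (class levels), no filter, a threshold of 0.01, a replicate block, and each library left out. The fit was tested on simulated data. Libraries of a group differed by more than sampling noise. The study's methods call the samples biological replicates; the labels name no animal or culture.

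The members, lists and tests were chosen with earlier results of these data known. Values in every liver are given for members past adjusted p 0.05, for the 2 highest and 2 lowest log2 fold changes and the 2 highest levels per length in each class, for Saa1, Saa2, Saa3, Hamp, Alb and Hp, and the called iMEF members are given per library. From each pathway list up to 4 called genes (or the 2 smallest p) are named, some by fold change alone. Other genes with per-liver values (Lcn2, C1ra, C8b, Fgb, Proc) were chosen after their values were seen. One gene that the rule names is not reported here. Exon lengths and overlaps came from GENCODE M21.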

Additional observations from a re-analysis of the deposited data

Results flagged for a closer look

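Among 108 groups of 4 livers (54 members, both genotypes), 6 held a liver far from the other 3 by Dixon's ratio, and chance flags about 1 in 20, or 5.4. Of these, 3 were Trf2-deleted liver 4, the lowest of its group for Fga (2614 CPM), Fgb (2664 CPM) and Fgg (2231 CPM), neighboring genes whose values are not independent. Control liver 1 was the lowest of its group for Hrg (684 CPM) and Itih2 (1453 CPM), and control liver 4 the highest for C6 (29.6 CPM).

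The effect differed between liver and iMEFs for 5 of 9 members by the interaction test. The liver effect minus the iMEF effect, in log2, was 1.34 for C1ra, 1.19 for C1s1, 1.39 for C4b, 1.05 for Fetub and -0.63 for Masp1. Fetub had 38 reads over the senescent and 71 over the vehicle-treated iMEF libraries.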

How the results depend on the processing

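The count of 0 members called in liver became 2 (Saa1 and Saa2) with no filter on low counts, and ranged from 0 to 1 with 1 liver left out; the 1 was Saa1 without Trf2-deleted liver 3. It was 0 in the other alternatives. Over all genes the liver count of 49 was 30 at a threshold of 0.01, 133 with DESeq2, 130 with no filter, and 35 to 58 with 1 liver left out. The tissue difference count of 5 members was 2 at a threshold of 0.01 and 3 with limma-voom, and 4 to 5 with 1 library left out; Fetub was the one lost (adjusted p 0.0511 to 0.0871). The iMEF count of 4 members was 4 to 6 with 1 library left out. It was 5 with DESeq2 and with no filter, which also gave 6 members for the tissue difference. The member added there was Kng1 (tissue difference 2.35 with DESeq2 and 2.29 with no filter). Without senescent library 3, Kng1 and Itih2 were added in iMEFs (Itih2 log2 fold change -0.44, edgeR adjusted p = 0.00265). As mean log2 levels of the members, carriers moved to 0.069 and the acute phase class to 0.27. With 1 liver left out, class log2 ratios ran from 0.18 to 0.27 (carriers), -0.11 to -0.01 (complement), -0.13 to 0.01 (coagulation, positive only without Trf2-deleted liver 4) and -0.08 to -0.03 (acute phase). Fgb ranged from -0.15 to 0.027, Fgg from -0.17 to 0.020 (both positive only without Trf2-deleted liver 4) and C8b from -0.16 to 0.082. The causes of these shifts were not tested.

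Replicate numbers are shared between groups. Correlations of same-numbered libraries ran from -0.08 to 0.24 in liver and from -0.17 to -0.01 in iMEFs. Only the livers numbered 4 had a positive value, 0.24, which was the highest of all liver pairs, with the next at 0.083. With the replicate block, 0 liver members, 42 liver genes, 4 iMEF members and 5 tissue difference members were called.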
